A study of Schizosaccharomyces pombe with 78 samples.

Results

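The genes described here are 176 protein-coding genes of the fission yeast *Schizosaccharomyces pombe* whose transcripts followed a fitted wave that peaked in G2 in cells with unmutated Nrm1. They were chosen from 4733 protein-coding genes whose normalized count averaged at least 50 over all libraries, among 5152 protein-coding genes and 12683 features in the table. For each gene the mean log2(normalized count + 1) of the 2 Nrm1 replicates at each time point was fitted with a straight line in time plus a wave of 120 min, and a gene was kept when its wave, measured from peak to trough on the log2 scale, was at least 0.8 and its peak fell in the last 15 min of that period or in its first 25 min. In all, 442 genes had a wave of that size, and the other 266 peaked at other times. The Nrm1 time course therefore chose these genes, and every value of theirs from that time course is given as a description without a test.

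The study followed transcription through synchronous cell cycles in 3 strains that all carry the temperature-sensitive allele *cdc25-22*. The strain called Nrm1 is *cdc25-22 nrm1-HA* and carries the unmutated protein with an HA tag, Nrm1-SA is *cdc25-22 nrm1-SA-HA*, in which the phosphorylated residues cannot be phosphorylated, and Nrm1-SD is *cdc25-22 nrm1-SD-HA*, in which the same residues imitate phosphorylation. Cultures in minimal medium at 25 °C were held at 36 °C for 4 h, returned to 25 °C and sampled from 0 to 220 min every 20 min, and untreated cultures were set apart and sampled without a block. Whether such a culture and the time course of the same number came from 1 starting culture is not given. Each of these 13 conditions per strain had 2 replicates, which gives 78 libraries of polyA RNA, and the labels name 1 strain for each genotype.

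Fission yeast spends most of its cycle in G2, and grows at its ends during that time. The Cdc25 phosphatase removes the inhibitory phosphate from the CDK Cdc2, so cells with a heat-inactivated Cdc25 stop at the end of G2, and on return to the permissive temperature they pass together through mitosis, septation, G1 and S phase into the next G2. Nrm1 is a corepressor of the MBF complex, the transcription factor of G1/S genes, and the residues mutated here are targets of the CDK. Many transcripts of the stress response, which in this yeast is led by the MAP kinase Sty1 and the transcription factor Atf1, also change with temperature and nutrients.

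Between 2685381 and 10469416 reads per library fell on features (median 5818955.5), and the G2 genes took 1.04 to 4.80% of them. The 2 libraries taken at 140 min from Nrm1-SA agreed more closely than sampling noise alone would leave. Their chi-square per degree of freedom was 0.392, against 1.88 to 18.2 in the other 38 pairs. They held 3779270 and 3779599 reads, and whether they are separate samples is not known. In the tests they entered as 1 sample unless stated, while the wave sizes of the G2 genes average both. Transcripts of 9 mitotic genes reached their fitted peak at a median of 59.2 min in Nrm1 and those of 9 histone genes at 90.5 min, so that 120 and 140 min fell after S phase. In Nrm1-SA the waves of these marker genes were also smaller than in Nrm1, with medians of 1.27 against 1.89 for mitotic genes and 1.49 against 2.46 for histone genes, and in Nrm1-SD they were 1.64 and 1.96. The level of *nrm1* cannot check the labels, since the strains differ in the residues of the protein.

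As a group the G2 genes fell after release, were lowest at 60 min and rose again to 120 min in Nrm1. Their median level, relative to the asynchronous Nrm1 cultures, was -1.50 and -1.54 on the log2 scale in the 2 replicates at 60 min and -0.29 and -0.26 at 120 min. It then fell to -0.71 and -0.77 at 180 min, and stood at -0.41 and -0.38 at 220 min. The earlier trough was thus deeper than the later one in both replicates. In these bulk libraries fewer cells that express a gene and less of its RNA per cell cannot be told apart.

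**Figure D1:**
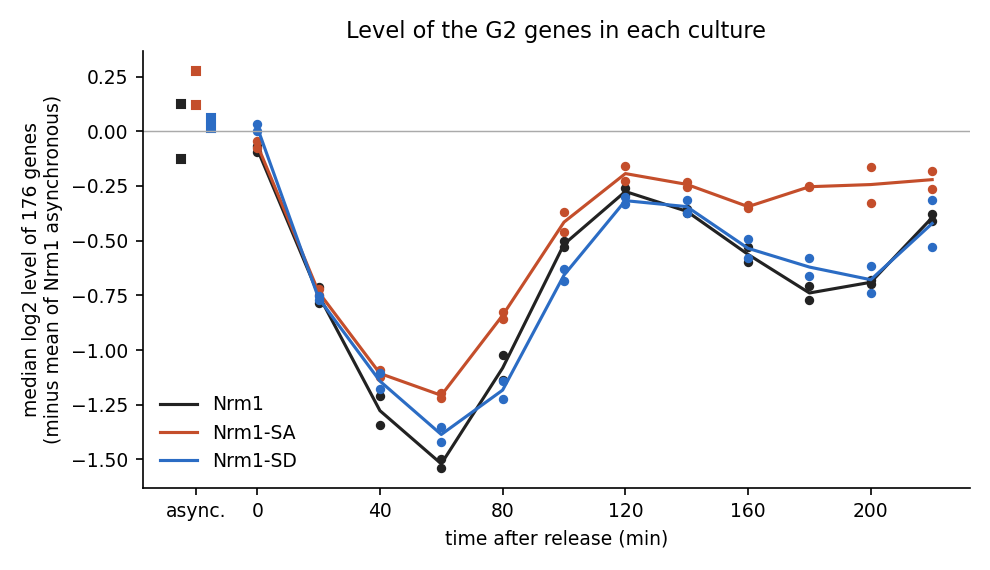
Median log2 level of the 176 G2 genes, minus their mean in the asynchronous Nrm1 cultures, against time after release in min. Points are replicates, lines join their means and squares are asynchronous cultures. After 120 min the Nrm1 and Nrm1-SD lines fall a second time, to -0.74 and -0.62 at 180 min, while Nrm1-SA stays at -0.25.

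The 176 genes had a median wave of 1.07 in Nrm1 (1.03 and 1.09 in the replicates taken singly), from 0.80 in SPAPJ691.02 to 2.86 in *rds1*, against 0.32 over all protein-coding genes of the same minimum count. Of these genes 95 peaked in the last 15 min of the period and 81 in its first 25 min. The fitted wave joins the G2 of the block with that of the released cycle, and the genes differed in how much each contributed. In Nrm1 17 of them were at least 1 log2 unit higher at 0 and 20 min than at 120 and 140 min, and 16 were at least 1 unit lower. Without the 0 and 20 min libraries 117 of the 176 still met the rule.

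*rds1* had the largest wave, followed by *rtc3* with 2.46, *mug147* with 2.36, SPAC27D7.11c with 2.35, *sro1* with 2.16 and *fhn1*, which acts in eisosome assembly, with 2.02. The rest of the 10 largest were *cta3*, SPAC4H3.08, *sut1* and SPBC1271.08c, at 1.93 to 1.89. The normalized counts of *rds1* in Nrm1 were 250.6 and 375 at 0 min, 59.2 and 51.7 at 60 min, 626 and 718 at 120 min and 735 and 826 at 140 min, while the asynchronous cultures held 8928 and 5001. The release series thus stayed far below asynchronous growth at every time point. SPAC27D7.11c, a But2 family protein, had 11087 and 12885 at 0 min, 1128 and 899 at 60 min and 5531 and 6059 at 120 min, so the block and the following G2 were both high. *spd1*, which encodes an inhibitor of ribonucleotide reductase and was singled out after its values were seen, was low at the block, with 152 and 205 at 0 min, and highest at 120 min, with 714 and 789. *psu1*, annotated as a beta-glucosidase of the cell wall, had 970 and 751 at 60 min and 4436 and 3924 at 140 min.

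Heat shock chaperones stood at the other end. *ssa1*, an Hsp70, had 3175 and 3668 at 0 min in Nrm1, 104.8 and 116 at 20 min, and 59.0 to 160 in all later libraries, so that only the 0 min libraries were high behind its wave of 1.76. *ssa2* encodes a near relative, and reads could be shared between them, so the values of each are uncertain. *ssa2* had the highest mean of all the G2 genes, 11651, ahead of *knh3* with 10570 and the hydrolase gene *asl1* with 5222, and fell from 46400 and 52860 at 0 min to 1574 and 1585 at 100 min.

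By function the genes were spread over many pathways, and no gene of 144 for ribosome biogenesis, 131 for ribosomal proteins, 53 translation factors, 79 for amino acid synthesis, 14 on a phosphate list and 41 for mating and meiosis was among them, although the phosphate transporter gene *pho842*, which that list lacks, was. Of all 4733 eligible genes 3.72% were G2 genes. The stress response list held 12 of 67 (*tps1*, *rds1*, *gst3*, *fbp1*, *gpd1*, *gpx1*, *ubi4*, *ish1*, *ntp1*, *bfr1*, *ptc1* and *ctt1*), heat shock chaperones 7 of 51 (*ssa1*, *ssa2*, *hsp9*, *hsp78*, *fes1*, *sti1* and *psi1*) and glucose and glycolysis 7 of 51 (*cit1*, *agl1*, *mae1*, *fbp1*, *ght2*, *eno102* and *inv1*). The cell wall list held 6 of 67 (*psu1*, *pfl8*, *bgl2*, *gas2*, *exg3* and *cfh2*) and transporters 7 of 77 (*per1*, *mae1*, *ght2*, *cta3*, *ctr4*, *bfr1* and *agp3*). Regulators of mitotic entry were *cig1*, *cds1* and *ppk31*, 3 of 64. Metal uptake gave *sib2* and *ctr4*, 2 of 47, RNA polymerase I and III gave the polymerase III repressor *maf1*, 1 of 38, and cell polarity gave *rga3*, 1 of 60. Some names stand on more than one list. These shares are descriptions, since the lists were drawn up with results of these data known.

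The genes lay on all 3 chromosomes, with 83 on I, 60 on II and 33 on III, which is 3.88, 3.45 and 3.88% of the eligible genes there. Among them were 10 pairs of direct neighbours, all in tandem as are 45.5% of adjacent protein-coding pairs, such as *tps1* with *spg4* and *tam13* with *mug147*. Of the neighbours of G2 genes 5.68% were G2 genes too. Of the 176 genes, 161 overlap an annotated feature on the other strand. The library kit keeps strand, but whether reads were counted by strand is not given in the sources used here, so reads of such partners may not have been separated.

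The letters TGACGT, the core of the stress element bound by Atf1, were the motif in which upstream sequences of these genes differed most in share from those of all genes. Within 250 bases upstream of the annotated gene start, in RefSeq's ASM294v3 and on either strand (ACGTCA is its reverse complement), it stood in 40 of 176, or 22.7%, against 282 of 5112 genes, or 5.52%, and in 26 of the 264 genes with other peak times and such a sequence, or 9.85%. Among those that peaked in the last 15 min of the period it stood in 32 of 95, or 33.7%, and among those that peaked in its first 25 min in 8 of 81, or 9.88%. A match is a description of the letters and not evidence of binding. The windows below show it with up to 30 bases on each side, on the gene's strand and with the match in capitals, for the 8 genes with the largest wave among those whose window overlaps no annotated feature.
sut1, a sucrose and maltose symporter, chrI:3935240-3935305, plus strand: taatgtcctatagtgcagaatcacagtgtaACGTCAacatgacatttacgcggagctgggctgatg
opi10, a nuclear import carrier, chrII:2265189-2265254, minus strand: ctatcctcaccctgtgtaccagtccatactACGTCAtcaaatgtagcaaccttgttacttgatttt
spd1, chrI:5412381-5412442, plus strand: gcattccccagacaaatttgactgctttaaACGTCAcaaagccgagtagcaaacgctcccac
git5, a G protein beta subunit of glucose signalling, chrII:1463754-1463819, plus strand: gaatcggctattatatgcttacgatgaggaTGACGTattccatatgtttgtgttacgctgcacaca
SPCC569.03, uncharacterized, chrIII:2431486-2431551, minus strand: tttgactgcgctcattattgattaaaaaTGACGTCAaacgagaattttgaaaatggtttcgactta
SPBC11C11.06c, uncharacterized, chrII:3360012-3360077, minus strand: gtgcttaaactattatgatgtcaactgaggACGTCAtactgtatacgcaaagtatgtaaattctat
maf1, chrI:3009379-3009434, minus strand: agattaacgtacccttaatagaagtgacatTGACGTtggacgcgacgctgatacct
les1, a nuclear bridge protein, chrI:1038230-1038295, minus strand: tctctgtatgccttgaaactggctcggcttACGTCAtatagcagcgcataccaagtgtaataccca

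Both orientations occurred, and SPCC569.03 held the letters on both strands in 1 overlapping run. Of other motifs searched on both strands, GTAAACA, bound by forkhead factors, stood in 10.2% of the G2 genes, 14.8% of all and 30.3% of genes with other peak times. ACGCGT, the site of MBF, gave 3.98, 2.64 and 8.71%. The heat shock forms GAANNTTC and TTCNNGAA, each its own reverse complement, stood in 10.8 and 9.66% of the G2 genes and 9.49 and 8.35% of all. CCAAT gave 29.0 against 35.4%, GATAA 55.1 against 54.2%, CAGTCACA (HomolD) 1.14 against 2.62% and ACCCTACC (HomolE) 0.57 against 1.51%. Genes with TGACGT had a median wave of 1.231 in the Nrm1 strain, against 1.02 in the 136 without it, and the same medians were 0.937 against 0.714 in Nrm1-SA and 1.203 against 0.979 in Nrm1-SD.

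Most of the G2 genes kept a wave with a peak in G2 in both mutants, whose libraries entered the rule only through the minimum mean count. The median wave was 0.74 in Nrm1-SA (0.73 and 0.79 in the replicates) and 1.01 in Nrm1-SD (1.04 and 1.03). By limma with Benjamini-Hochberg adjustment over 7431 features at 0.1, 138 of 176 genes had a wave that peaked in G2 in Nrm1-SA, where 12.2% of all features did, and 159 in Nrm1-SD, where 17.8% did. A further 7 and 11 had a wave with a peak at another time, against 25.4 and 35.5% of all features. Both mutants called 132 of the genes, Nrm1-SD alone 27 and Nrm1-SA alone 6. The count for Nrm1-SA rests on both replicates, since it was 85 without replicate 1 and 62 without replicate 2, and it was 81 with a period of 110 min and 67 without the linear trend.

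**Figure D2:**
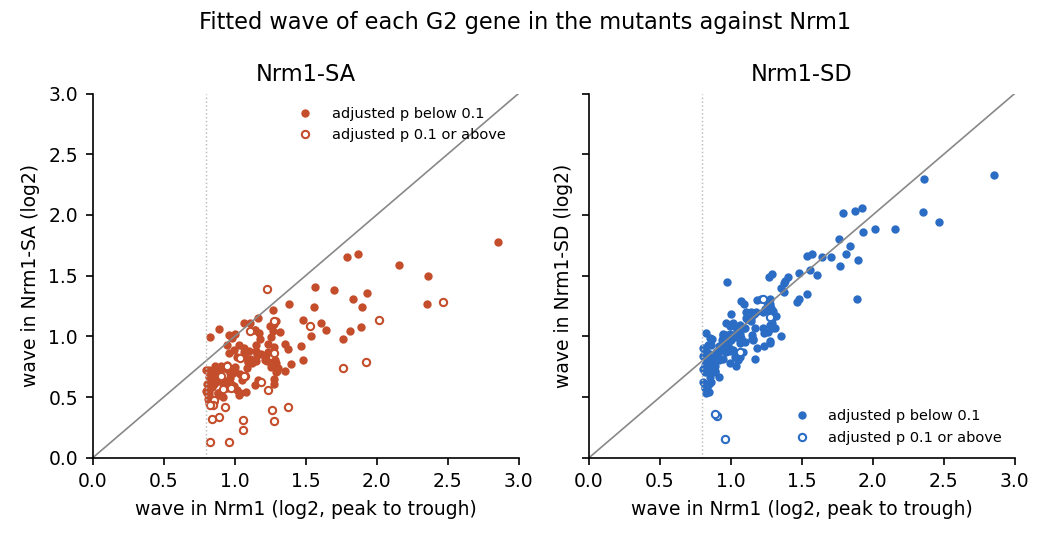
Fitted wave (log2, peak to trough) of each of the 176 G2 genes in Nrm1-SA (left) and Nrm1-SD (right) against its wave in Nrm1. Filled points have an adjusted p below 0.1 for the mutant's wave, open points do not, the diagonal marks equal waves and the dotted line the minimum of 0.8 set by the rule in Nrm1. In Nrm1-SA 168 of 176 points lie below the diagonal, and in Nrm1-SD 120.

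The largest waves were those of *rds1* in both mutants, at 1.78 (adjusted p = 0.000201) in Nrm1-SA and 2.33 (adjusted p = 2.02e-07) in Nrm1-SD. In Nrm1-SA *opi10* followed with 1.68, SPBC30D10.14 with 1.65, *sro1* with 1.59 and *mug147* with 1.50, and in Nrm1-SD *mug147* with 2.30, SPAC4H3.08 with 2.05, *opi10* with 2.04 and SPAC27D7.11c with 2.02. Neither mutant called a G2 wave for 11 genes, which were *sec5*, *cmt2*, *ssa2*, *ddr48*, *bos1*, *laf1*, *mmp2*, *ppk31*, *nth1*, *urh1* and *mug132*. The smallest estimates were 0.13 for *agp3* and *mmp2* in Nrm1-SA and 0.15 for *mmp2* in Nrm1-SD, where *ppk31* with 0.35, SPAC11D3.09 with 0.36 and *wtf21* with 0.54 were also among the 5 smallest. *mmp2*, annotated as the catalytic subunit of an endopeptidase, was at 84.5 to 159 in the time course of Nrm1-SA and 79.4 to 150 in that of Nrm1-SD. Its range in Nrm1 was 46.4 to 138, with the low values at 60 min that the rule used.

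The wave of a member gene in Nrm1-SA was at the median 70.1% of its wave in Nrm1 (quartiles 59.1 and 80.1%), and in Nrm1-SD 94.8% (86.2 and 103%). Genes chosen for a large wave in 1 strain tend to have a smaller one elsewhere, so neither share was tested. For the 266 genes with other peak times the medians were 70.8 and 92.4%, close to those of the G2 genes. Between the mutants, which the fit of the rule left out, the wave estimate was larger in Nrm1-SD for 164 of 176 genes, with a median difference of 0.27 against 0.05 over all features. No single gene passed limma's test of that difference in either direction (0 of all features, 0%), 9 of the 176 had an unadjusted p under 0.05, and the same counts were 6 with edgeR and 7 with DESeq2, of which neither called a G2 gene. Over all features 3.59, 3.07 and 3.00% had such a p with the 3 tools, so the counts lay near the background. The peaks of the genes called in Nrm1-SD came a median of 3.41 min later than in Nrm1, later in 151 of 170, and in Nrm1-SA 0.81 min later, in 86 of 145. Genes with other peak times were later by 4.05 and 0.32 min.

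By role, 11 of the 12 stress genes had a G2 wave in Nrm1-SA and all 12 in Nrm1-SD. *ctt1*, the catalase that removes hydrogen peroxide, had waves of 1.16, 1.15 and 1.18 in the 3 strains (in the order Nrm1, SA, SD), *tps1*, the trehalose-phosphate synthase, 1.27, 1.22 and 1.49, *ubi4*, the ubiquitin gene, 1.57, 1.41 and 1.68, and *gpd1*, the glycerol-3-phosphate dehydrogenase, 1.07, 1.11 and 1.09. The exception in Nrm1-SA was *fbp1*, the fructose-1,6-bisphosphatase of gluconeogenesis, with 0.57 (adjusted p = 0.388). Of the 7 chaperones only *hsp9* was called in Nrm1-SA, and all but *ssa2* in Nrm1-SD. Glucose and glycolysis genes were called in 4 of 7 and 7 of 7, transporters in 4 of 7 and 7 of 7, cell wall genes in 4 of 6 and 6 of 6, *cig1* and *cds1* in both and *ppk31* in neither.

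The times taken as the G2 of the released cycle were then compared with the times around them. The value was the mean of 120 and 140 min minus the mean of 60, 80, 180 and 200 min. This leaves out the heat block and the first minutes after cooling. In Nrm1-SA 129 of the genes were higher in this window by limma, against 15.6% of all features, and in Nrm1-SD 157, against 23.2%. Lower in it were 1 gene in Nrm1-SA (*agp3*), against 14.7% of all features, and 2 in Nrm1-SD (*ssa2* and *urh1*), against 23.1%. The median difference over the G2 genes was 0.38 in Nrm1-SA and 0.58 in Nrm1-SD, and over all features 0.01 and 0.00. In Nrm1 itself it was 0.59, and 170 of 176 genes were above 0.

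**Figure D3:**
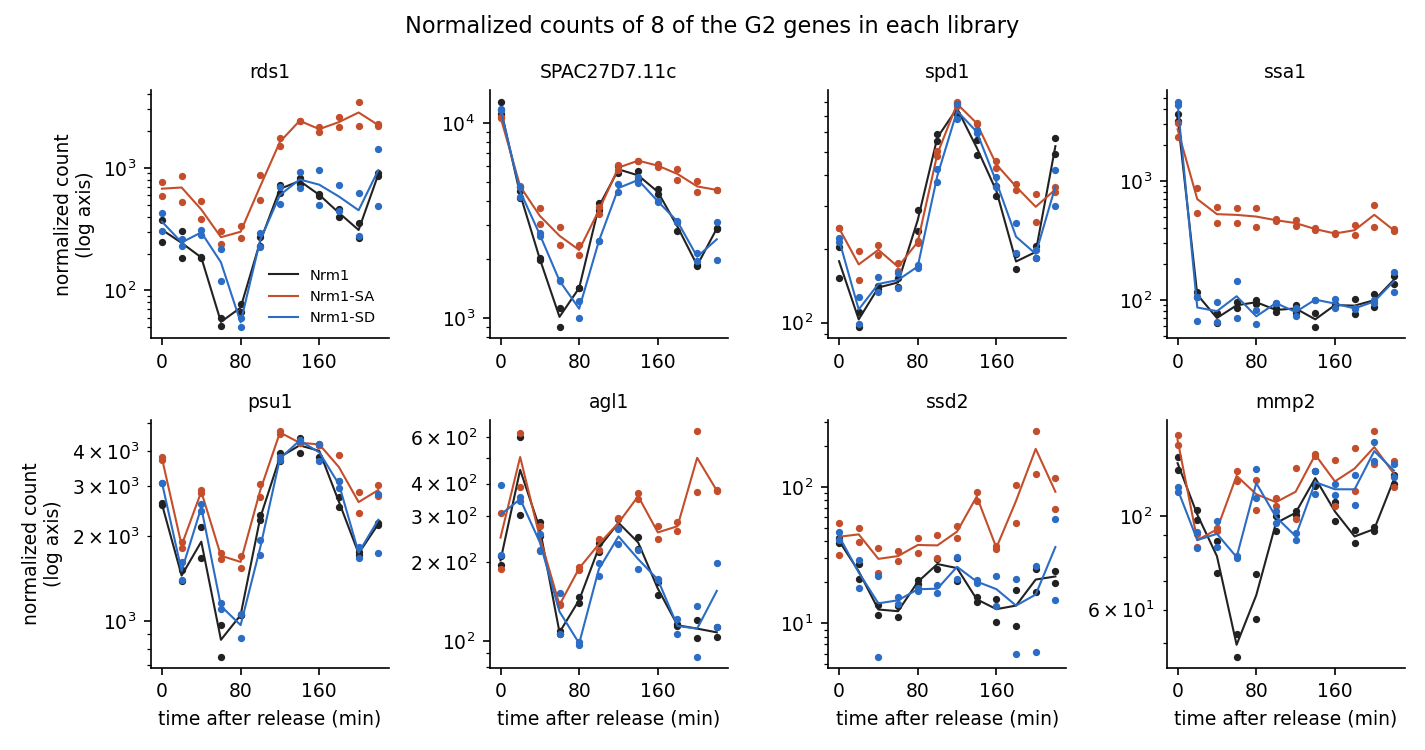
Normalized counts (log axis) of 8 of the G2 genes against time after release in min, with a point for each library and lines through the means of the 2 replicates in each strain. Within the time course *ssa1* is high only at 0 min in Nrm1 and Nrm1-SD, *spd1* and *psu1* peak at 120 to 140 min in all strains, and *rds1* stays high after 140 min in Nrm1-SA.

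*rds1* had 1498 to 2422 in the window libraries of Nrm1-SA, of which the 140 min pair counts as 1 sample here and below, against 237 at the lowest, 1239 at the median and 3450 at the highest of the other 8. In Nrm1-SD the window held 504 to 922 and the other times 50.4, 248 and 725. The groups overlapped in both mutants, in Nrm1-SA through the libraries of 180 and 200 min. The difference was 1.22 ± 0.24 (SE) in Nrm1-SA (limma, adjusted p = 7.52e-05) and 1.67 ± 0.21 in Nrm1-SD (adjusted p = 2.28e-09). *psu1* had 4267 to 4685 in the window of Nrm1-SA against 1545, 2082 and 3865, and 3726 to 4353 in that of Nrm1-SD against 875, 1418 and 3138, with no overlap in either strain. It rose by 0.99 ± 0.09 (adjusted p = 1.44e-13) and 1.38 ± 0.07 (adjusted p = 7.88e-22).

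SPAC27D7.11c had 5760 to 6432 in the window of Nrm1-SA against 2101, 3671 and 5841, which overlapped, and 4430 to 5278 in that of Nrm1-SD against 1002, 1763 and 3162, which did not. Its difference was 0.81 ± 0.10 (adjusted p = 8.87e-09) and 1.42 ± 0.09 (adjusted p = 2.91e-19). *cig1*, a B-type cyclin, had 436 to 502 against 249, 372 and 488 in Nrm1-SA and 414 to 568 against 168, 267 and 386 in Nrm1-SD, so its groups overlapped only in Nrm1-SA. *cmt2*, a catechol O-methyltransferase, had the largest window difference of all the genes in both mutants, 1.59 ± 0.15 (adjusted p = 1.13e-12) and 1.97 ± 0.13 (adjusted p = 1.04e-18), although neither mutant called a G2 wave for it.

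Among the stress genes 11 of 12 were higher in the window in Nrm1-SA and 12 of 12 in Nrm1-SD. All 6 cell wall genes were higher in Nrm1-SD, and 5 in Nrm1-SA, where *bgl2*, a glucan beta-glucosidase, was at 0.22 ± 0.11 (adjusted p = 0.135). *gas2*, a glucanosyltransferase and with a mean of 4907 among the 5 most abundant of the G2 genes, rose by 0.64 ± 0.08 and 1.03 ± 0.07 (adjusted p = 9.33e-09 and 4.5e-18). Of the 7 chaperones, 1 was higher in Nrm1-SA, and in Nrm1-SD 2 were higher and 1 lower. *maf1* rose by 0.64 ± 0.12 and 0.99 ± 0.11 (adjusted p = 6.01e-05 and 5.4e-11).

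After these values were seen the window was split into its 2 sides, 120 and 140 min minus 60 and 80 min, here called the earlier trough, and minus 180 and 200 min, the later trough. Against the earlier trough 158 of the genes were higher in Nrm1-SA (22.9% of all features) and 161 in Nrm1-SD (27.1%), while 2 were lower in each (20.6 and 26.8%). Against the later trough 31 were higher and 27 lower in Nrm1-SA (12.7 and 15.5% of all features), and 99 were higher and 15 lower in Nrm1-SD (20.8 and 22.7%). The median difference to the later trough was 0.34 for Nrm1, 0.00 for Nrm1-SA and 0.29 for Nrm1-SD, and to the earlier trough 0.87, 0.76 and 0.87. Per replicate, the median level of the genes in Nrm1-SA was -0.23 and -0.16 at 120 min and -0.25 and -0.26 at 180 min, while in Nrm1-SD it fell from -0.33 and -0.30 to -0.66 and -0.58.

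**Figure D4:**
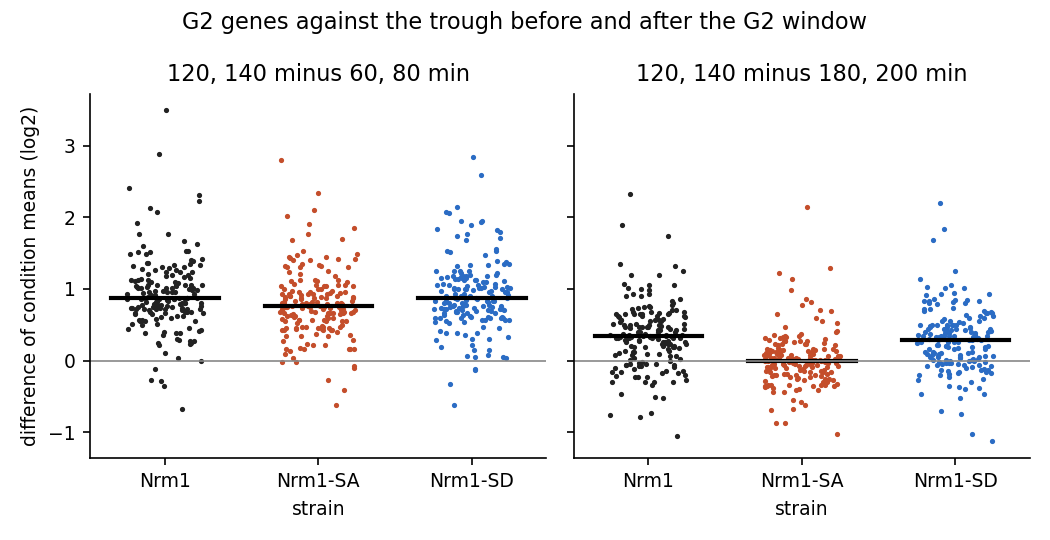
Difference of condition means (log2) for each of the 176 G2 genes between the G2 window and the earlier trough (left) or the later trough (right) in each strain. Points are genes, spread sideways for display, and black bars are medians. On the right the median is 0.34 in Nrm1 and 0.29 in Nrm1-SD, and 0.00 in Nrm1-SA.

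Set directly against each other, the mutants differed in the later trough for 39 of the genes. The window minus the later trough was higher in Nrm1-SD for 36 (1.56% of all features) and in Nrm1-SA for 3 (2.03%). A higher value can be a larger fall after the window or a smaller rise. The median of Nrm1-SD minus Nrm1-SA was 0.25 over the G2 genes, above 0 for 152 of 176, and 0.00 over all features. In the earlier trough the mutants differed for 15 genes one way (0.821%) and 1 the other (1.88%), and in the whole window for 20 (0.767%) and 1 (1.47%). Genes with other peak times are lower in the window at the median. For them a lower value in Nrm1-SD than in Nrm1-SA was called in 46 of 266 for the later trough. The same was called in 64 for the earlier trough and 53 for the window. These counts were not stable, because the one for the later trough was 4 without replicate 1 of Nrm1-SA, 5 without replicate 1 of Nrm1-SD and up to 58 without another replicate. That for the earlier trough was 3 without replicate 1 of Nrm1-SA and 9 without replicate 2, and that for the window 5 without replicate 1 of either mutant. Transcripts of the mitotic marker genes were lower in G2 than at 180 and 200 min. They were lower by a median of 1.34 in Nrm1-SA, 1.65 in Nrm1-SD and 1.95 in Nrm1. The swing of these transcripts was thus also smaller in Nrm1-SA than in Nrm1-SD. These values describe RNA only, and whether the timing or extent of cell division had a part in the result was not tested.

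The largest differences in the later trough were in *ssd2*, a succinate-semialdehyde dehydrogenase, in SPAC4H3.08, annotated as a 3-hydroxyacyl-CoA dehydrogenase, and in *agl1*, a maltase-type alpha-glucosidase. In Nrm1-SA *agl1* had 270.5 and 296 at 120 min and 367 and 348 at 140 min, then 264 and 286 at 180 min and 632 and 370 at 200 min. In Nrm1-SD it had 235 and 268, then 222 and 189, and fell to 107 and 122 and to 87.4 and 136. All 4 late libraries of Nrm1-SD were thus below its 4 window libraries, while in Nrm1-SA they overlapped. The difference between the mutants was 1.21 ± 0.28 (adjusted p = 0.00914). It passed neither without replicate 1 of Nrm1-SA (adjusted p = 0.122) nor without replicate 1 of Nrm1-SD (adjusted p = 0.136).

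SPAC4H3.08 had 110 to 121 in the window of Nrm1-SA and 127 to 174 at 180 and 200 min, and in Nrm1-SD 40.3 to 69.3 and then 16.9 to 35.5. The groups did not overlap in either mutant, and their order was opposite. The difference was 1.40 ± 0.30 (adjusted p = 0.00496), and it did not pass without replicate 1 of Nrm1-SA (adjusted p = 0.164). *ssd2* met the minimum mean through its asynchronous cultures, which held 407 to 1222. In the time courses it had low counts, with 42.3 to 91.1 in the window of Nrm1-SA, 54.1 and 104 at 180 min and 256 and 125 at 200 min, against 19.8 to 30.8 and then 5.94 to 26.4 in Nrm1-SD. Its difference of 1.72 ± 0.53 passed (adjusted p = 0.0747), but not under 8 of 16 other settings, edgeR among them (adjusted p = 0.162). In the other direction *urh1*, a uridine ribohydrolase, differed by -0.82 ± 0.15 (adjusted p = 0.000824), *mmf2* by -0.59 ± 0.19 (adjusted p = 0.0903) and *aca1* by -0.50 ± 0.14 (adjusted p = 0.0383). Of 16 other settings *urh1* did not pass in 1 (without replicate 1 of Nrm1-SD, adjusted p = 0.144), *mmf2* in 6 (up to 0.557) and *aca1* in 3 (up to 0.467).

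At 0 min cells were in the G2 block and at 36 °C together, and the effects of arrest and heat cannot be told apart. Compared with the asynchronous cultures of the same strain, 41 of the genes were higher and 90 lower at 0 min in Nrm1-SA (26.4 and 29.2% of all features), and 54 were higher and 69 lower in Nrm1-SD (30.8 and 28.9%). In both mutants 41 were higher and 63 lower, and 4 moved in opposite directions. The median difference was -0.24 in Nrm1-SA, -0.04 in Nrm1-SD and -0.06 in Nrm1. Of the 127 genes that were higher in the G2 window in both mutants, 42 (33.1%) were lower at 0 min in both and 28 (22.0%) higher in both. The same shares among the 926 features of any kind with such a window were 35.2 and 14.3%.

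**Figure D5:**
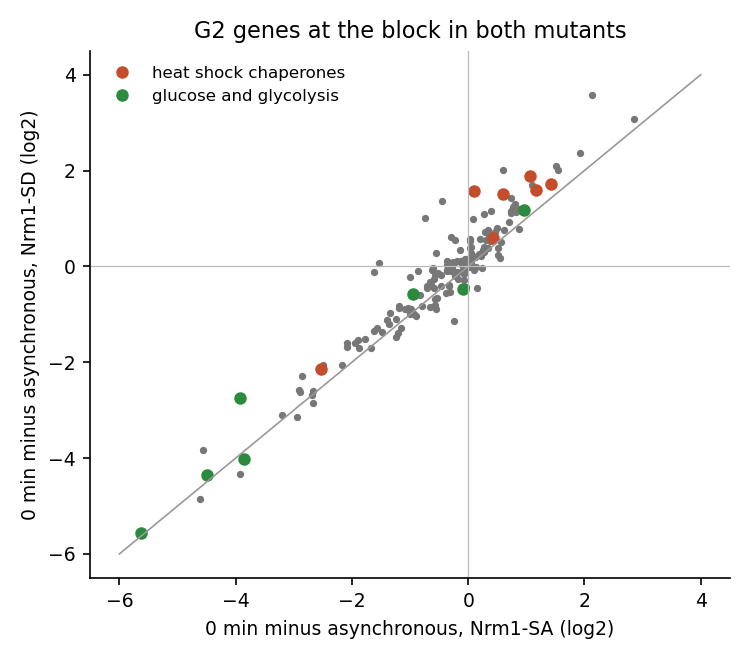
Log2 difference of 0 min minus asynchronous growth for each of the 176 G2 genes in Nrm1-SD against Nrm1-SA. Points are genes, the diagonal marks equal differences, and the colours mark the heat shock chaperones and the glucose and glycolysis genes among them. The values run from -5.62 and -5.56 in *inv1* up to 2.85 in *pho842* for Nrm1-SA and 3.58 in *ppk31* for Nrm1-SD. The mean count of *ppk31* lay near the minimum of the rule.

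Several of the genes that fell most at the block act on sugars. *inv1*, the secreted invertase, had 4423 and 7335 in asynchronous Nrm1-SA and 66.9 and 196 at 0 min, a difference of -5.62 (limma, adjusted p = 3.14e-12), and in Nrm1-SD it had 4507 and 5483 and then 49.7 and 218, a difference of -5.56 (adjusted p = 3.6e-12). *agl1* differed by -4.49 and -4.35, *fbp1* by -3.85 and -4.03, *eno102*, an enolase, by -3.93 and -2.74, and *rds1* by -3.93 and -4.34. A fall as large was seen outside sugar metabolism in *ddr48*, with -4.61 and -4.86. *ssd2* had -4.56 and -3.84, but it met the minimum mean through its asynchronous cultures. The filter therefore favoured a fall in *ssd2*, and no conclusion is drawn from it. In every one of these genes the block libraries lay below the asynchronous ones. Of the 7 glucose and glycolysis genes 5 were lower in Nrm1-SA and 6 in Nrm1-SD, and *ght2*, a glucose and fructose symporter, was higher by 0.97 and 1.18. Among the stress genes 10 of 12 were lower and 2 higher in Nrm1-SA, and 7 lower and 4 higher in Nrm1-SD.

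The 7 chaperones among the G2 genes moved mostly the other way, with 5 higher in Nrm1-SA and 6 in Nrm1-SD. Over the whole list of 51 chaperones 23 were higher and 15 lower in Nrm1-SA, and 27 and 13 in Nrm1-SD. The rule's fit used the 0 min libraries of Nrm1, so it could favour chaperones that are high at the block. *sti1*, which links Hsp70 and Hsp90, rose by 1.42 and 1.73 (adjusted p = 1.08e-16 and 5.47e-20), *psi1*, an Hsp40, by 1.06 and 1.90, and *fes1*, an exchange factor of Hsp70, by 1.16 and 1.60. *hsp9* was the exception among the 7 and fell by 2.54 and 2.15 on the log2 scale. *ssa1* had 1819 and 3496 in asynchronous Nrm1-SA and 2361 and 3081 at 0 min, which overlapped, with a difference of 0.10 (adjusted p = 0.779), while in Nrm1-SD it had 1426 and 1610 and then 4641 and 4382, a difference of 1.57 (adjusted p = 1.3e-06). After release *ssa1* stayed at 348 to 870 in Nrm1-SA, above the 59.0 to 160 of Nrm1 and the 63.0 to 171 of Nrm1-SD at 20 to 220 min. Other genes with strong increases were *pho842*, a phosphate transporter, with 2.85 and 3.07, *ppk31*, a protein kinase, with 2.13 and 3.58, and *sro1* with 1.55 and 2.01. Of these *pho842* was singled out after its values were seen.

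The asynchronous cultures, which the rule's fit did not use, were compared between strains. Both mutants were compared with the same 2 Nrm1 libraries, so those comparisons share their controls. In Nrm1-SA 46 of the genes were higher than in Nrm1 and 7 lower (8.75 and 5.07% of all features), and the median difference was 0.22 against 0.03 over all features. The replicates of the controls differed, though, since the median level of the G2 genes was 0.13 and -0.13 in the 2 Nrm1 libraries, 0.12 and 0.28 in those of Nrm1-SA and 0.01 and 0.06 in those of Nrm1-SD, so the groups overlapped. The count of 53 fell to 12 without Nrm1 replicate 2, to 16 without Nrm1-SA replicate 2 and to 24 in a fit of the asynchronous libraries alone. In Nrm1-SD 2 genes were higher than in Nrm1, *eno102* and *mel1* (1.55% of all features), and none was lower by limma (0.848%), where 8 had an unadjusted p under 0.05. With edgeR 1 was lower and with DESeq2 0.

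*eno102* had 268 and 108 in Nrm1, 489 and 721 in Nrm1-SA and 308 and 613 in Nrm1-SD. Both mutants lay above both Nrm1 libraries, by 1.80 (adjusted p = 0.000181) in Nrm1-SA and 1.35 in Nrm1-SD. *gsf2* differed by 1.40 (adjusted p = 9.46e-06), *mel1*, a melibiase, by 1.29 (adjusted p = 0.000262), *cta3*, a calcium-transporting ATPase, by 1.28 (adjusted p = 0.00014) and *pfl8*, a cell wall glycoprotein, by 1.25 (adjusted p = 3.15e-07), all in Nrm1-SA. Without Nrm1 replicate 2 *gsf2* (0.74, adjusted p = 0.111) and *mel1* (0.77, adjusted p = 0.139) no longer passed, and in Nrm1-SD neither *eno102* (adjusted p = 0.805) nor *mel1* (adjusted p = 0.293) did. Of the 12 stress genes among the G2 genes 7 were higher in Nrm1-SA and of the 6 cell wall genes 4, and none of these was lower. Over the whole stress list 22 of 69 tested genes were higher and 4 lower, and over the cell wall list 7 of 69 and 1. These calls depend on the Nrm1 replicates as the total count does.

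Between the mutants 8 of the genes were higher and 30 lower in Nrm1-SD than in Nrm1-SA (3.27 and 5.33% of all features). *cta3* had 162 and 123 in Nrm1-SA and 44.7 and 53.0 in Nrm1-SD, close to the 75.2 and 44.5 of Nrm1, and the difference was -1.52 (adjusted p = 7.74e-06). *pfl8* differed by -1.34, *gsf2* by -1.33 and SPAPB24D3.07c by -0.97. *mmf2*, by contrast, was higher in Nrm1-SD by 0.97 (adjusted p = 0.000135). The total of 38 was 16 without Nrm1-SA replicate 2 and 15 in the asynchronous libraries alone.

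The limits of the rule passed through a continuum. Just inside the minimum wave were SPAPJ691.02 and SPAC1B3.08 with 0.801 and *ubp15* with 0.804, and just outside it *ypt4* and *exo5* with 0.799 and *ppk18* with 0.798. At the early end of the peak times *mug143*, *cta3* and *psi1* lay inside at 105.04 to 105.3 min. Outside it were *gal10*, SPAC11D3.17 and *hsp104* at 103.4 to 104.3 min. At the late end *mug132*, *laf1* and *sec5* lay inside at 23.7 to 24.7 min, and *srr1*, *rpf1* and *rix7* outside at 25.05 to 25.2 min. The lowest mean count inside was 55.9, in SPAC513.02, and SPBC19C7.04c just missed the minimum with 49.9. The same rule applied to Nrm1-SA gave 81 genes, of which 72 were among the 176, and applied to Nrm1-SD 162, of which 139 were.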

How the data were processed

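RNA was measured in 78 libraries. The authors deposited a signal: read counts per feature divided by DESeq2 size factors. According to the methods, reads were checked with FastQC, aligned with STAR and counted with HTSeq; the submitters' processing notes name ASM294v2, and the strand setting of HTSeq is not given in the sources used here. Whole reads were recovered from the deposited signal, with 100% of values whole within 0.01. Groups and replicates came from the labels.

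Tests were made with limma 3.58.1, run in R 4.3.3 with its trend option, on log2 of the normalized count plus 1, a scale that understates changes of low genes. It covered the 7431 features with a mean of at least 10, among them all 176 G2 genes, with Benjamini-Hochberg adjustment at 0.1, the threshold of the methods. Waves used an intercept, a linear trend and cosine and sine terms of 120 min per strain. Other contrasts used means of the 39 conditions with 1 shared spread from 77 libraries. Time points of 1 culture counted as independent. The methods call the replicates biological duplicates. Alternatives were edgeR 4.0.16 and DESeq2 1.42.0 on recovered reads, TMM scaling, pseudocounts of 0.5 and 5, no filter, a threshold of 0.05, other windows and periods, all 78 libraries, a replicate block and leaving out each replicate. On the recovered reads edgeR called 960 features with a G2 wave in Nrm1-SA and 1340 in Nrm1-SD, against 904 and 1326 by limma. The scripts were tested on simulated data.

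Genes were named by these rules: the 10 largest waves and 5 largest windows in Nrm1, the 5 largest and smallest waves in each mutant, the 5 largest non-overlapping changes in each asynchronous comparison, the largest trough and window differences between the mutants, genes on the functional lists, those next to each threshold and the 5 highest means. No wave difference between the mutants passed, so the rule for those named none. The genes, lists and motifs were chosen with earlier results of these data known, and the trough contrasts and the window between mutants after seeing the data. Upstream sequences came from RefSeq's ASM294v3, matched by systematic ID (12602 of 12683 features). The result for 1 further motif is not reported here. Python 3.11.15 with numpy 2.4.6, pandas 2.3.3 and matplotlib 3.10.9 was used.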

Additional observations from a re-analysis of the deposited data

Results flagged for a closer look

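By limma's test of the difference between strains, the mutants differed in 39 of the G2 genes in 120 and 140 min minus 180 and 200 min. They differed in 16 in the same times minus 60 and 80 min, and in 21 in the window as a whole. Single genes with the largest such differences in the later trough were *ssd2* with 1.72, SPAC4H3.08 with 1.40 and *agl1* with 1.21 on the log2 scale, in Nrm1-SD minus Nrm1-SA. The call for *ssd2* was lost under 8 of 16 other settings (adjusted p up to 0.452), that for SPAC4H3.08 under 1 and that for *agl1* under 2. Genes with other peak times also differed in the matching direction, 46 of 266 of them in the later trough. The part of culture synchrony in these differences was not tested.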

How the results depend on the processing

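Of the counts over the G2 genes, 288 values under other settings stayed within 1.5 times the main one and 26 did not, and of 364 values of single genes none changed sign and 45 no longer passed. Leaving out 1 replicate leaves 1 library per condition in that strain, which is then assumed to vary like the others. It gave 62 to 140 G2 waves in Nrm1-SA, 12 to 74 asynchronous changes in Nrm1-SA and 1 to 9 in Nrm1-SD against Nrm1, 16 to 37 between the mutants, 32 to 69 changes in the later trough of Nrm1-SA, and between the mutants 4 to 58 in the later trough, 3 to 17 in the earlier trough and 5 to 34 in the window. G2 waves in Nrm1-SA numbered 81 with a period of 110 min and 67 without a linear trend. In the asynchronous libraries alone the changes were 24 for Nrm1-SA, 0 for Nrm1-SD (limma, where 8 had an unadjusted p under 0.05 in the full fit, and edgeR called 3 and DESeq2 2) and 15 between the mutants. At a threshold of 0.05 the full fit gave 25 between the mutants. The window differed between the mutants for 33 genes with all 78 libraries and for 13 with wider windows. The rule kept 103 genes at a wave of at least 1 and 111 with a period of 110 min, 107 of them shared, and 175 to 194 when fitted to 1 Nrm1 replicate. Over all features edgeR called 355 higher and 293 lower in asynchronous Nrm1-SA, against 650 and 377 by limma, and 20 and 31 in Nrm1-SD, against 115 and 63. TMM scaling moved the median of all features by at most 0.033. The causes were not tested.

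A replicate block in the fit gave 138 and 160 G2 waves, 131 and 159 windows and 55, 2 and 38 asynchronous changes, all within 1.5 times the main ones. Replicate numbers showed no steady pairing between strains. Over 5356 features the correlation of replicate differences between strains at the same time ran from -0.18 to 0.27 with a median of 0.01. It was above 0.1 in 11 of 39 comparisons and below -0.1 in 6. Whether a number links the time points of 1 culture within a strain cannot be read from this. Depth limits low genes such as *ssd2*, at 5.71 to 57.8 normalized counts in released Nrm1-SD.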
